A study of Mus musculus with 8 samples.

Results

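The genes described here encode the calcium, sodium and TRP (transient receptor potential) cation channels of mouse islets. Members were all genes of the deposited count table whose symbol begins with *Cacna*, *Cacnb*, *Cacng*, *Scn* and a digit, *Scnn*, or *Trpa*, *Trpc*, *Trpm* or *Trpv* and a digit. This rule took 67 of the 24091 genes in the table and used no measured value. RNA was sequenced from pancreatic islets of 6-week-old mice on a C57BL/6 background, in 4 libraries from *Itgb1* mutant mice (genotype Ngn3-Cre, itgb1-/-) and 4 libraries from wild-type controls. Ngn3-Cre is active in endocrine progenitors, so the mutation removes integrin β1, a cell surface receptor for extracellular matrix, from the endocrine lineage and leaves it in the vessels, fibroblasts and nerves of an islet preparation. Whether the controls of these libraries carried the Cre transgene is not given in the sources used here. The islets of both groups had recovered overnight in culture, so the levels are those of cultured islets. The libraries are named as biological replicates, but no source says whether each came from its own mouse. Their p-values therefore cover the spread among the 8 libraries, part of which may be technical.

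Islet cells are electrically excitable. In a β-cell, glucose metabolism closes potassium channels, the membrane depolarizes, voltage-gated calcium channels open, and the calcium that enters triggers the fusion of insulin granules. A voltage-gated calcium channel has a pore subunit (*Cacna1* genes), which sets its electrical type, and auxiliary α2δ and β subunits (*Cacna2d* and *Cacnb* genes), which bring the pore to the membrane and tune its opening. Voltage-gated sodium channels (*Scn* genes, pore and β subunits) carry the upstroke of the action potential in many endocrine cells. The *Scnn* genes encode subunits of the epithelial sodium channel, which is not gated by voltage. TRP channels are cation channels opened by lipids, calcium, temperature, stretch or chemicals, and several add a depolarizing background current.

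A promoter window is shown for each of the 3 members with the smallest p-values that have an entry in the RefSeq promoter table, which is of the same build as the counts (GRCm38.p6, the patched form of mm10). Each window is the run of 250 bases just before the start site, printed 5′ to 3′ on the strand of the gene. Capitals mark a match to the hypoxia response element core, spelled ACGTG or GCGTG and searched on both strands, so that CACGT and CACGC also count.
Trpc7, chr13:56895790-56896039, minus strand: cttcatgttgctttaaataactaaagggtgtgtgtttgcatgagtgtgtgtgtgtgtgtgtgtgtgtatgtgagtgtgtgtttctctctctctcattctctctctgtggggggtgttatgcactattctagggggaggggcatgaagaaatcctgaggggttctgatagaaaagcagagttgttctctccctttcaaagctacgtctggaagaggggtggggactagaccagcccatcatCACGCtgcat
Cacnb2, chr2:14604056-14604305, plus strand: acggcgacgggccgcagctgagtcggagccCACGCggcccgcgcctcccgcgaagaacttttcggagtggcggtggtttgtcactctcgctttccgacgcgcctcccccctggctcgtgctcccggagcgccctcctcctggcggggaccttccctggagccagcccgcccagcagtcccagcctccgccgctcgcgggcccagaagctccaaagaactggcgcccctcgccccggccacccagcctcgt
Trpm5, chr7:143094643-143094892, minus strand: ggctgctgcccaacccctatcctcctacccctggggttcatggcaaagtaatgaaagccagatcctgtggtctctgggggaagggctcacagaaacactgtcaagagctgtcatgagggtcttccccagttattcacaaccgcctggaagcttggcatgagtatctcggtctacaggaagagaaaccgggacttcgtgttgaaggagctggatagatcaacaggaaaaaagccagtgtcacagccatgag
These *Trpc7* and *Cacnb2* windows held 1 match each and the *Trpm5* window held none. *Cacnb2* has a second window in the table, before a start site inside the gene, which held 0 matches and is not printed. The core was present in 47.1% of the 68 windows of members (53 genes) and in 38.6% of all 32851 windows. It was present in 8 of the 10 windows (8 genes) of members that were lower in mutants at an unadjusted p below 0.05, a group chosen by its values. The core TGACG of the cyclic AMP response element, also searched on both strands, was found in 17.6% of the members' windows and in 17.8% of all windows. Such matches describe letters only. *Cacna1a* and *Scn3a* had smaller p-values than *Trpm5* and are named only.

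The 8 libraries held 35.1 to 67.6 M counts. Mutant 3 and controls 2 and 3 held 62.2 to 67.6 M and the other 5 libraries held 35.1 to 41 M, and results are therefore also given within the 5 smaller libraries (mutants 1, 2 and 4 against controls 1 and 4). *Itgb1* had 266, 225, 193 and 255 CPM in mutants 1 to 4, against 422, 432, 408 and 315 CPM in controls 1 to 4, so all mutants lay below all controls. CPM here and below are counts per M of the library after TMM scaling, which corrects library size for differences in composition. Mutant 3 and control 3 were female by expression and the other 6 libraries male, so the 5 smaller libraries were all male. The summed level of 6 β-cell markers was 31100 to 48540 CPM in mutants and 31950 to 171700 CPM in controls, and that of 4 α-cell markers was 10400 to 20050 CPM in mutants and 19160 to 92530 CPM in controls. For 8 acinar markers it was 75.0 to 677 CPM in mutants and 18.0 to 9758 CPM in controls, with the 2 highest values in controls 2 and 3. For 8 fibroblast, stellate and pericyte markers it was 657 to 880 CPM in mutants and 323 to 478 CPM in controls, without overlap, and for 4 ductal markers 327 to 2381 CPM in mutants and 63.0 to 1128 CPM in controls. For 5 endothelial markers the sum was 530.4 to 629.5 CPM in mutants and 507 to 659.9 CPM in controls. For 6 Schwann and neuron markers it was 24.55 to 35.5 CPM in mutants and 27.61 to 44.07 CPM in controls. For 4 leukocyte markers it was 26.2 to 33.4 CPM in mutants and 17.0 to 26.0 CPM in controls, without overlap. Of these 4 single markers 1 had a positive and 3 a negative log2 fold change. No marker of these lists was at 0 in all libraries. In bulk RNA of this kind, fewer cells of a type and less RNA per cell cannot be told apart.

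The members spanned a wide range of levels. Over all 8 libraries, 23 of the 67 averaged over 10 CPM, 17 lay at 1 to 10 CPM and 27 lay under 1 CPM. To compare genes with each other, CPM were divided by gene length in kb. On this scale *Scnn1b*, the β subunit of the epithelial sodium channel, was highest at 81.4 CPM per kb in mutants and 69.5 CPM per kb in controls. *Cacnb3*, a cytosolic β subunit of calcium channels, followed among channel genes with 24.1 CPM per kb in mutants and 27.7 in controls. Next came the pore genes *Cacna1d* (17.8 in mutants, 20.1 in controls) and *Cacna1c* (18.2 in mutants, 18.6 in controls), which make the L-type channels Cav1.3 and Cav1.2, and *Cacna2d1* (16.4 in mutants, 19.6 in controls), the α2δ-1 subunit. All libraries of *Scnn1b* lay above those of every other channel gene, whereas neighbours in the order from *Cacnb3* to *Trpc1* overlapped and cannot be ranked. *Cacna1a*, the pore of the P/Q-type channel Cav2.1, had 11.6 CPM per kb in mutants and 14.4 in controls, near *Trpm7* (11.8 and 13.9) and *Trpc1* (11.3 and 13.95). The leading voltage-gated sodium channel pore was *Scn9a* (Nav1.7) with 5.90 CPM per kb in mutants and 6.63 in controls, ahead of *Scn8a* (3.09 and 3.47) and *Scn3a* (1.88 and 2.60), an order without overlap between these 3 genes. *Trpc4ap*, which the rule takes by its symbol, encodes a protein that binds a TRP channel and is not a channel. It had 36.2 CPM per kb in mutants and 39.0 in controls.

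**Figure D1:**
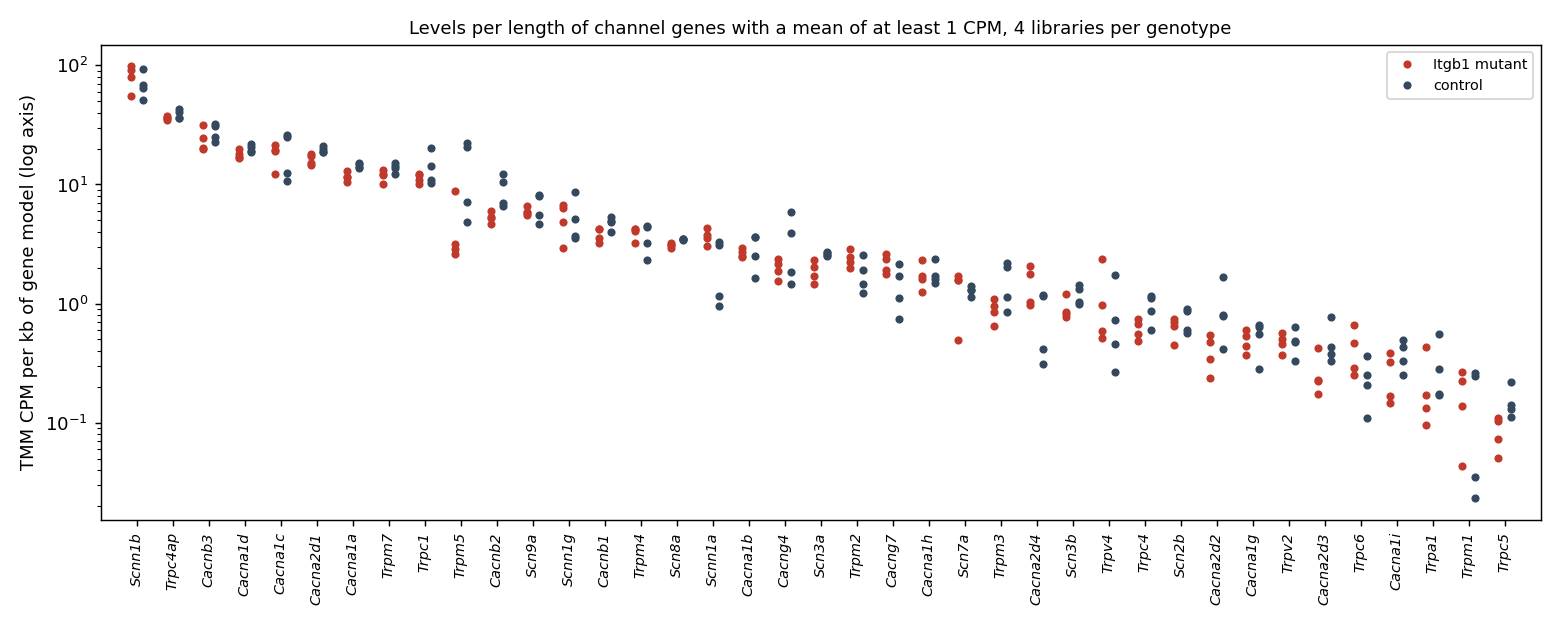
Level in CPM per kb of gene length (log axis) of members with a mean of at least 1 CPM, ordered by that level, with 1 red point for each of 4 mutant libraries and 1 dark point for each of 4 control libraries. Scnn1b, Cacnb3, Cacna1d, Cacna1c and Cacna2d1 lead the channel genes, and the mutant points of Trpm5 average 4.35 CPM per kb, against 13.7 for its control points.

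Of the 67 members 51 had enough counts for edgeR's filter and entered the test with 15233 genes in all. The other 16 included *Cacna1s*, *Cacng1*, *Cacng3*, *Cacng5*, *Cacng6*, *Cacng8*, *Scn1a*, *Scn10a*, *Scn4b*, *Trpc2*, *Trpm8*, *Trpv1*, *Trpv3*, *Trpv5* and *Trpc5os*, and none of them exceeded 1.01 CPM in any library. They include the skeletal muscle pore *Cacna1s*, the capsaicin receptor *Trpv1* (0.0591 to 0.294 CPM in mutants and 0.0477 to 0.182 CPM in controls) and the cold receptor *Trpm8*. *Trpc2* and *Trpv5* had no read. At this depth, absence from rare cells cannot be read from such levels.

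By edgeR's quasi-likelihood test no member reached both an adjusted p under 0.05 and a difference of over 2-fold, the criterion for a call, and neither did any other gene (0% of 15233). DESeq2 and edgeR's likelihood ratio test each called 1 member, *Trpc7*. DESeq2 called 0.738% of all genes as higher and 0.51% as lower in mutants, and the likelihood ratio test called 0.597% of all genes in either direction. At an unadjusted p below 0.05 from the quasi-likelihood test, 10 of the 51 tested members (19.6%) were lower in mutants, against 6.89% of all genes tested, and 0 members were higher, against 6.4% of all genes. The 10 were *Cacna1a*, *Cacna2d1*, *Cacna2d2*, *Cacnb2*, *Scn3a*, *Trpc4*, *Trpc5*, *Trpc7*, *Trpm3* and *Trpm5*. All 4 mutants lay below all 4 controls for 7 members (13.7%; 3.8% of all genes): *Cacna1a*, *Cacna2d1*, *Cacnb2*, *Scn3a*, *Scn8a*, *Trpc5* and *Trpc7*. No member had all mutants above all controls (4.4% of all genes). The median log2 fold change of the tested members was -0.17, beside 0.00152 over all genes tested, and 36 of the 51 (70.6%) had a lower mean in mutants, beside 49.8% of all genes. The summed CPM of all 67 members, after TMM scaling, was 1813, 1930, 1725 and 1887 in mutants 1 to 4. It was 2097, 1980, 2028 and 2161 in controls 1 to 4, without overlap. The TMM factors, by which library sizes are multiplied, were lowest in controls 2 and 3 (0.867 and 0.779), which raised their CPM. With total count scaling the sums of controls 2 and 3 fall below those of all mutants. The lack of overlap in this sum therefore rests on TMM scaling. The number lower at an unadjusted p below 0.05 was 5 without mutant 2 (9.62% of members, 4.1% of all genes), 4 without mutant 4 (7.84% of members, 3.91% of all genes) and 5 without control 3 (9.43% of members, 4.23% of all genes). It was also 5 when libraries were scaled by total counts (9.8% of members, 3.3% of all genes), so the share over all genes was smaller in each of these fits too. Total count scaling shifted the median of all genes to 0.15, and 36 of 51 members were again lower than that median.

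**Figure D2:**
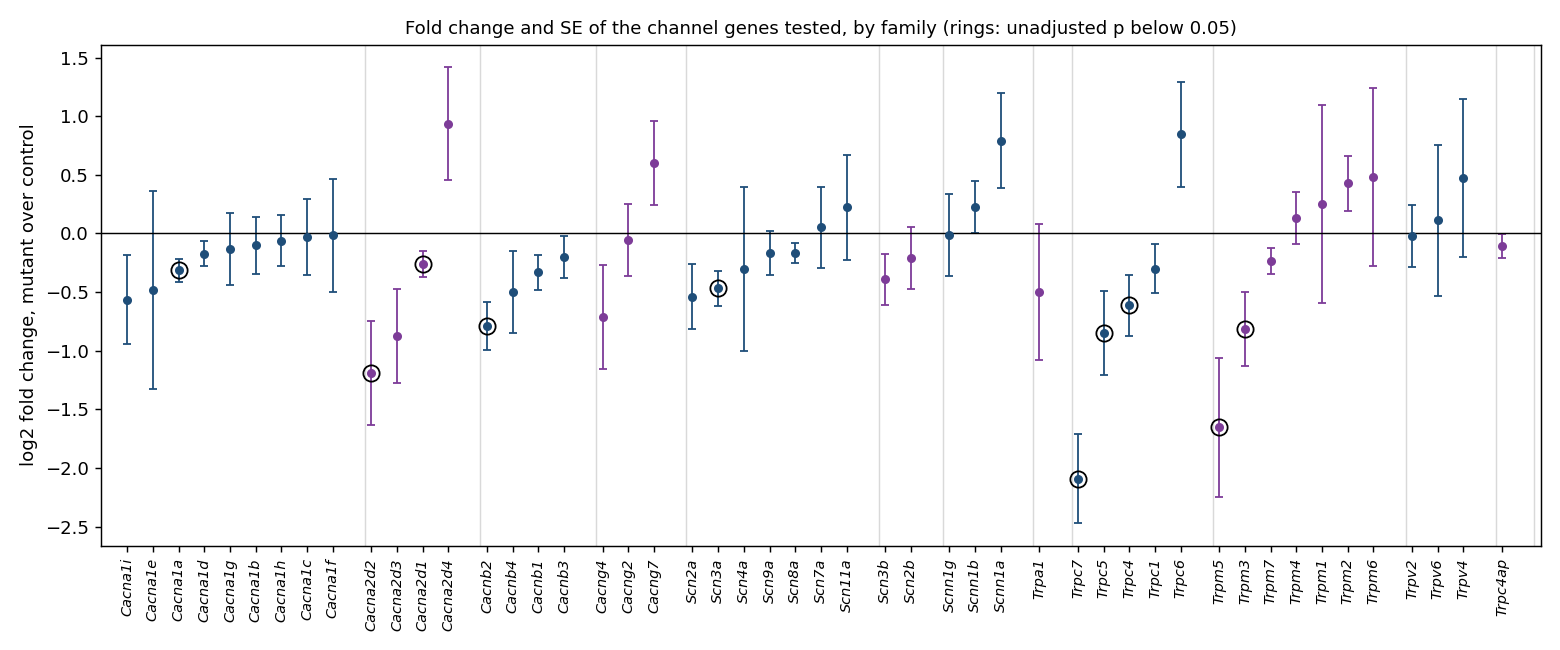
Log2 fold change, mutant over control, of tested members by family, with bars of 1 SE from edgeR's quasi-likelihood fit over all 8 libraries. Rings mark the 10 members with an unadjusted p below 0.05, all on the lower side, with Trpc7 (-2.09) and Trpm5 (-1.65) farthest from 0.

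Among the pore genes of voltage-gated calcium channels, all 9 tested had a lower mean in mutants, beside 49.8% of all genes. Their log2 fold changes were -0.56 to -0.02, and 1 had an unadjusted p below 0.05, beside 6.89% of all genes lower. With total count scaling 5 of the 9 were below 0 and 8 of the 9 below the median of all genes. *Cacna1a* (chromosome 8, 84415364 to 84640249, plus strand) had 114, 114, 130 and 104 CPM in mutants 1 to 4, against 147, 137, 151 and 139 CPM in controls 1 to 4. After TMM scaling every mutant was below every control (p = 0.0286 by a two-sided exact permutation test, the lowest value possible with 4 libraries a group). Its log2 fold change was -0.31 (SE 0.10, unadjusted p = 0.0119, adjusted p = 0.353 by edgeR and 0.0739 by DESeq2). The unadjusted p stayed below 0.05 without any single library, and within the 5 smaller libraries the change was -0.37 (SE 0.06). With total count scaling the groups overlapped and the unadjusted p was not below 0.05. The log2 fold change of *Cacna1a* was then -0.16 (adjusted p = 0.644, edgeR), beside a median of 0.15 over all genes.

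The L-type pores, which carry much of the calcium current that drives insulin secretion, differed less over all 8 libraries. *Cacna1d* (chromosome 14, 30039941 to 30491156, minus strand) had 199, 210, 234 and 195 CPM in mutants, against 225, 219, 257 and 244 CPM in controls, a log2 fold change of -0.17 (SE 0.11, unadjusted p = 0.139). The groups overlapped through mutant 3. *Cacna1c* (chromosome 6, 118587240 to 119196409, minus strand) had 284, 287, 180 and 318 CPM in mutants, against 367, 183, 156 and 386 CPM in controls, a log2 fold change of -0.03 (SE 0.32). Its 3 lowest values were those of the 3 libraries of over 50 M counts, whatever their genotype. Within the 5 smaller libraries *Cacna1c* was lower in every mutant, with a log2 fold change of -0.35 (SE 0.07, unadjusted p = 0.00343, adjusted p = 0.0976, edgeR), and within the 3 larger libraries the change was 0.11. *Cacna1d* was likewise lower in every mutant of the 5 smaller libraries, by -0.23 (SE 0.07, unadjusted p = 0.0152, adjusted p = 0.138, edgeR). The N-type pore *Cacna1b* also split by library set among controls, with 23.9, 26.4, 24.9 and 28.8 CPM in mutants and 35.3, 16.0, 24.7 and 35.6 CPM in controls. Its change was -0.10 (SE 0.24) over all 8 libraries and -0.43 (SE 0.10, unadjusted p = 0.00497, adjusted p = 0.106, edgeR) within the 5.

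The remaining pore genes were low. The T-type pores, which open at weak depolarization, had 11.6 to 21.3 CPM in mutants and 13.9 to 21.7 CPM in controls for *Cacna1h*, 3.11 to 5.13 CPM and 2.41 to 5.63 CPM for *Cacna1g*, and 1.42 to 3.75 CPM and 2.45 to 4.85 CPM for *Cacna1i*. Each of the 3 overlapped between groups, with unadjusted p-values from 0.173 to 0.790. *Cacna1e*, the R-type pore, had 1.85, 0.168, 0.251 and 0.285 CPM in mutants, against 0.285, 1.43, 1.33 and 0.501 CPM in controls. Mutant 1 alone set the upper end of the mutant range, and without it the log2 fold change was -1.91 with an unadjusted p below 0.05, against -0.48 (SE 0.85) over all 8 libraries. Of the 8 fits without a single library, this was the 1 with an unadjusted p below 0.05 (edgeR). The adjusted p was 0.623 or more in every alternative fit that gave one. Within the 5 smaller libraries the change was 0.96 (SE 1.08), and the values rest on 7 to 82 reads per library. The retinal L-type pore *Cacna1f* stayed below 1.2 CPM in all libraries, with means of 0.677 CPM in both groups. *Cacna1c* overlaps *Dcp1b*, *Cacna1d* overlaps *Dcp1a* and *Chdh*, and *Cacna1h* overlaps *Tpsg1* in the annotation. Reads were counted without strand by default, so the counts of these pore genes may be affected by such neighbours, which was not tested.

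Of the 4 *Cacnb* genes, whose cytosolic products carry the pore to the membrane, all 4 had a lower mean in mutants under each of 3 scalings, with a median log2 fold change of -0.42. *Cacnb2* (chromosome 2, 14604306 to 14987908, plus strand) had 40.4, 39.6, 45.4 and 35.2 CPM in mutants, against 50.6, 79.9, 93.2 and 53.7 CPM in controls. All mutants lay below all controls, and controls 2 and 3 were the highest. The log2 fold change was -0.79 (SE 0.21, unadjusted p = 0.00452), with an adjusted p of 0.353 by edgeR and 0.0385 by DESeq2. It was -0.61 with a term for library set, -0.45 (SE 0.08, unadjusted p = 0.00189) within the 5 smaller libraries and -0.91 within the 3 larger ones, and its unadjusted p stayed below 0.05 without any single library. *Cacnb1* had 16.1, 16.1, 12.4 and 13.5 CPM in mutants, against 15.3, 18.6, 20.4 and 18.8 CPM in controls, a change of -0.33 (SE 0.15, unadjusted p = 0.0519). *Cacnb3*, at the highest level of the family, had 67.6 to 107 CPM in mutants and 77.0 to 109 CPM in controls, with a change of -0.20 (SE 0.18). *Cacnb4* was under 0.6 CPM in every library.

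Of the 4 *Cacna2d* genes, whose products sit on the outer face of the membrane, 3 had a lower and 1 a higher mean in mutants. *Cacna2d1* (chromosome 5, 15934691 to 16374511, plus strand) had 185, 222, 231 and 193 CPM in mutants, against 255, 236, 268 and 239 CPM in controls, without overlap after TMM scaling. Its log2 fold change was -0.26 (SE 0.11, unadjusted p = 0.0456, adjusted p = 0.371 by edgeR), and the unadjusted p reached 0.136 when single libraries were left out. *Cacna2d2* had 2.65, 1.88, 3.03 and 1.30 CPM in mutants, against 2.31, 4.43, 9.20 and 4.32 CPM in controls, a change of -1.19 (SE 0.45, unadjusted p = 0.0261). It was -0.74 without control 3 and -0.77 (SE 0.40, unadjusted p = 0.0998) within the 5 smaller libraries, and the unadjusted p was below 0.05 in 5 of 8 fits without a single library. Control 1 lay inside the mutant range and control 3 was the highest. *Cacna2d3* had 0.635 to 1.56 CPM in mutants and 1.22 to 2.85 CPM in controls (-0.87, SE 0.40, unadjusted p = 0.0592). *Cacna2d4* ran the other way, with 7.26, 12.5, 14.4 and 6.78 CPM in mutants, against 8.15, 2.17, 2.91 and 8.23 CPM in controls. Its change was 0.93 (SE 0.48, unadjusted p = 0.0858) over all 8 libraries, 0.10 (SE 0.29) within the 5 smaller ones and 2.53 within the 3 larger ones. *Cacna2d4* starts 40 kb from *Cacna1c* on chromosome 6 and overlaps *Lrtm2*.

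The *Cacng* genes include the γ subunits of muscle calcium channels and the TARPs, which accompany glutamate receptors. Of 8 members 3 were tested. *Cacng4* had 1.51, 1.85, 2.33 and 2.11 CPM in mutants, against 1.43, 3.84, 5.72 and 1.79 CPM in controls, so controls 2 and 3 were high and controls 1 and 4 lay within the mutant range. Its change was -0.71 (SE 0.44) over all 8 libraries and 0.18 (SE 0.25) within the 5 smaller ones. *Cacng7* had 1.67 to 2.42 CPM in mutants and 0.686 to 2.0 CPM in controls (0.60, SE 0.36, unadjusted p = 0.13), and *Cacng2* had 0.407 to 0.783 CPM in mutants and 0.557 to 0.701 CPM in controls.

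**Figure D3:**
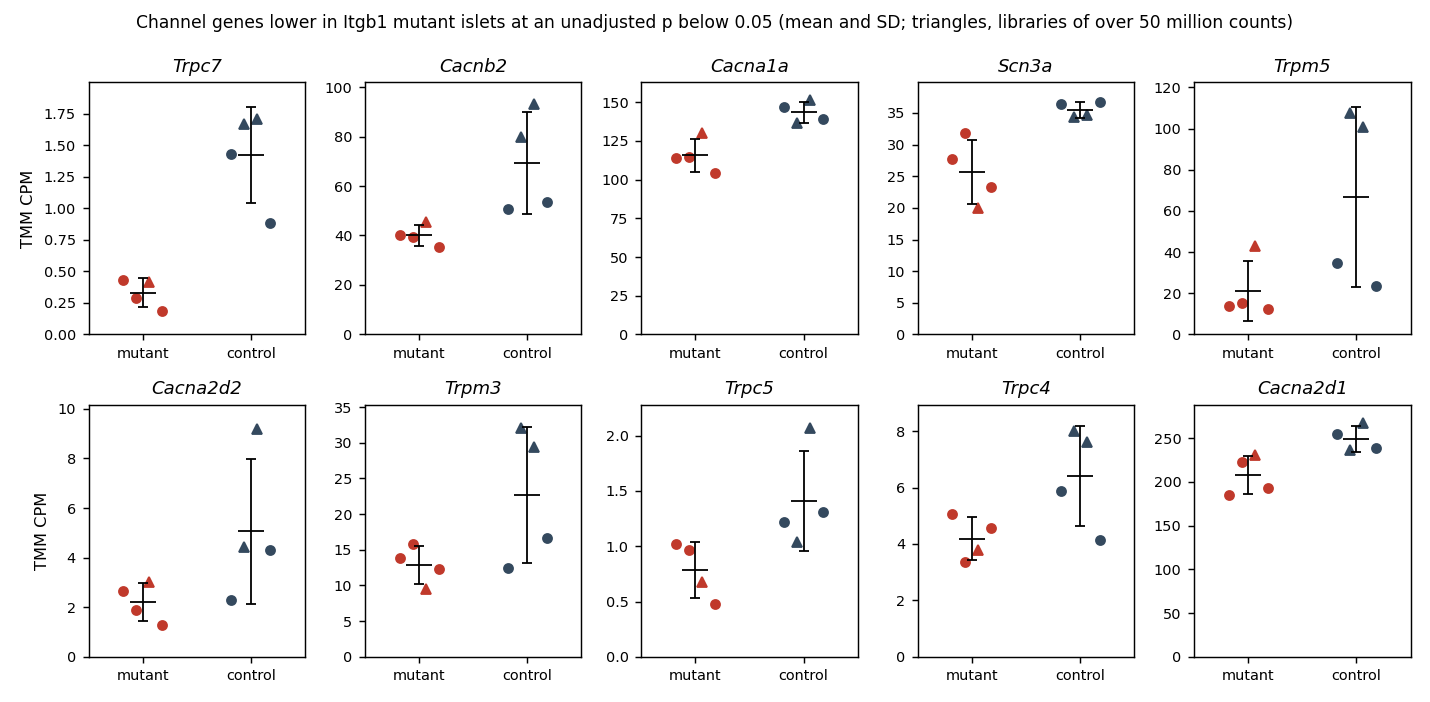
Level in CPM after TMM scaling in each of the 8 libraries for the members with an unadjusted p below 0.05. Mutants are left of controls, with bars at the group mean and SD (n = 4 each). Triangles are the 3 libraries of over 50 M counts. Trpc7, Cacnb2, Cacna1a and Scn3a show no overlap between groups, whereas in Trpm5 mutant 3 (42.8 CPM) lies above 2 of the controls.

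Of the 10 *Scn* pore genes 7 were tested, with 5 lower and 2 higher means in mutants under each of 3 scalings. The 7 include *Scn7a*, which is not gated by voltage. *Scn3a* (Nav1.3, chromosome 2, 65457118 to 65567492, minus strand), a main sodium channel gene of mouse endocrine cells, had 27.6, 31.8, 20.0 and 23.2 CPM in mutants, against 36.4, 34.3, 34.6 and 36.7 CPM in controls. After TMM scaling the 4 controls lay close together and all 4 mutants lay below them, whereas the groups overlapped with total count scaling. The log2 fold change was -0.47 (SE 0.15, unadjusted p = 0.0131, adjusted p = 0.353 by edgeR and 0.114 by DESeq2), -0.41 (SE 0.14, unadjusted p = 0.0241) within the 5 smaller libraries and -0.76 within the 3 larger ones. Its unadjusted p stayed below 0.05 without any single library. With total count scaling the log2 fold change of *Scn3a* was -0.32 (adjusted p = 0.536, edgeR), and its unadjusted p was not below 0.05. *Scn8a* (Nav1.6, chromosome 15, 100869858 to 101045938, plus strand) had 37.7, 37.3, 35.7 and 38.6 CPM in mutants, against 42.1, 41.1, 42.2 and 42.0 CPM in controls. This is a small difference without overlap after TMM scaling, with a log2 fold change of -0.17 (SE 0.09, unadjusted p = 0.0867, exact two-sided permutation p = 0.0286). With total count scaling the log2 fold change of *Scn8a* was -0.016, beside a median of 0.15 over all genes.

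*Scn9a* (Nav1.7), the most abundant sodium channel pore, had 57.9, 66.1, 55.4 and 58.7 CPM in mutants, against 82.8, 47.3, 56.2 and 81.1 CPM in controls. The controls split by library set, with controls 1 and 4 above all mutants and control 2 below them. The change was -0.17 (SE 0.19) over all 8 libraries, -0.43 (SE 0.07, unadjusted p = 0.00134, adjusted p = 0.0803, edgeR) within the 5 smaller ones and 0.12 within the 3 larger ones. *Scn7a*, a sodium-sensing relative that is not gated by voltage, had 12.7, 13.6, 3.96 and 12.6 CPM in mutants, against 10.4, 10.4, 9.14 and 11.4 CPM in controls, so mutant 3 was low and the other 3 mutants were above all controls. *Scn2a*, *Scn4a* and *Scn11a* had no more than 2 CPM in any library, and of these *Scn2a* differed most (-0.54, SE 0.28, unadjusted p = 0.0887). *Scn3a* and *Scn2a* lie 103 kb apart on chromosome 2, and *Scn1a*, *Scn9a* and *Scn7a* form a second group there with gaps of 39 and 38 kb. Genes of this family are similar in sequence, and reads shared between them could not be assigned here.

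The β subunits of sodium channels are small membrane proteins that modulate gating. *Scn3b* had 4.66, 4.48, 6.51 and 4.25 CPM in mutants, against 5.42, 5.62, 7.83 and 7.22 CPM in controls, a change of -0.39 (SE 0.22, unadjusted p = 0.11) over all 8 libraries and -0.51 (SE 0.18, unadjusted p = 0.0296) within the 5 smaller ones. *Scn2b* had 2.03 to 3.42 CPM in mutants and 2.58 to 4.12 CPM in controls.

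Of the 3 epithelial sodium channel genes 2 had a higher mean in mutants, and all 3 did with total count scaling. *Scnn1a*, the α subunit, had 12.4, 13.2, 10.6 and 15.1 CPM in mutants, against 10.9, 4.01, 3.34 and 11.4 CPM in controls. Controls 2 and 3 were low, and mutant 3 lay just below controls 1 and 4, which is all that made the groups overlap. *Scnn1a* was the 1 member with mutants above controls within the 5 and within the 3 libraries at once (1.96% of members; 9.34% of all genes). Its log2 fold change was 0.79 (SE 0.41, unadjusted p = 0.0855) over all 8 libraries and 0.74 (unadjusted p = 0.019) with a term for library set. *Scnn1b* had 225, 261, 158 and 279 CPM in mutants, against 196, 184, 146 and 262 CPM in controls (0.23, SE 0.22), and the 2 library sets again differed in both groups. *Scnn1g*, which lies 97 kb from *Scnn1b* on chromosome 7, had 8.74 to 20.0 CPM in mutants and 10.6 to 25.6 CPM in controls (-0.01, SE 0.35). *Scnn* genes are known from epithelia that absorb sodium, and the ductal marker sum of mutants 1, 2 and 4 was 1010 to 2381 CPM, against 1128 and 469 CPM in controls 1 and 4. Its part in the *Scnn1a* result was not tested.

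Among TRPC genes, which encode receptor- and lipid-operated channels, 3 of 6 tested were lower in mutants at an unadjusted p below 0.05, beside 6.89% of all genes. The median log2 fold change of these 6 was -0.46 over all 8 libraries and -0.04 within the 5 smaller ones. *Trpc7* (chromosome 13, 56773098 to 56895789, minus strand) had the smallest p of all members. It had 0.430, 0.289, 0.414 and 0.190 CPM in mutants 1 to 4, from 19, 12, 28 and 8 reads, against 1.43, 1.67, 1.71 and 0.882 CPM in controls 1 to 4, from 55, 90, 90 and 37 reads. The highest mutant had less than the lowest control, and the reads behind each value were few. The log2 fold change was -2.09 (SE 0.38, unadjusted p = 0.000407), with an adjusted p of 0.233 by edgeR, 0.00128 by its likelihood ratio test and 0.000378 by DESeq2. It ranged from -2.26 to -1.90 with single libraries left out, and was -1.92 (SE 0.44, unadjusted p = 0.00531) within the 5 smaller libraries and -2.0 within the 3 larger ones.

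*Trpc5* (chromosome X, 144377327 to 144688180, minus strand) had 1.02, 0.962, 0.679 and 0.474 CPM in mutants, against 1.22, 1.04, 2.07 and 1.31 CPM in controls. After TMM scaling the groups did not overlap, though mutants 1 and 2 came close to control 2. Its change was -0.85 (SE 0.36, unadjusted p = 0.0424), and the unadjusted p was below 0.05 in 2 of 8 fits without a single library and reached 0.122. With a term for library set it was -0.83 (unadjusted p = 0.0611), and within the 5 smaller libraries -0.63 (SE 0.38, unadjusted p = 0.153). *Trpc4* had 5.06, 3.34, 3.78 and 4.58 CPM in mutants, against 5.89, 8.0, 7.62 and 4.12 CPM in controls, with control 4 inside the mutant range (-0.61, SE 0.26, unadjusted p = 0.0432). The unadjusted p of *Trpc4* was likewise below 0.05 in 2 of 8 fits without a single library, and within the 5 smaller libraries its change was -0.21 (SE 0.25). *Trpc1*, the most abundant member of the family, had 46.2 to 56.2 CPM in mutants and 47.3 to 91.5 CPM in controls, with control 3 the highest (-0.30, SE 0.21). *Trpc6* had 2.35, 1.47, 1.27 and 3.34 CPM in mutants, against 1.84, 1.04, 0.551 and 1.26 CPM in controls, a change of 0.85 (SE 0.45, unadjusted p = 0.0936). *Trpc6* is known from vascular smooth muscle, and the sum of 5 smooth muscle markers was 22.9 to 276 CPM in mutants and 13.8 to 53.3 CPM in controls. Its part in the *Trpc6* values was not tested.

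Of the TRPM genes 7 of 8 were tested, with 3 lower and 4 higher means in mutants. *Trpm5* (chromosome 7, 143071529 to 143094642, minus strand) encodes a calcium-activated monovalent cation channel of β-cells and taste cells. It had 13.9, 15.4, 42.8 and 12.6 CPM in mutants, against 35.0, 108, 101 and 23.5 CPM in controls. Mutant 3 and controls 2 and 3, the larger libraries, were the highest of their groups, and within either set of libraries every mutant lay below every control. Over all 8 libraries the log2 fold change was -1.65 (SE 0.59, unadjusted p = 0.0215, adjusted p = 0.353 by edgeR and 0.0782 by DESeq2; exact two-sided permutation p = 0.0857), and the unadjusted p was below 0.05 in 3 of 8 fits without a single library. With a term for library set it was -1.14 (unadjusted p = 7.17e-05, adjusted p = 0.084, edgeR). Within the 5 smaller libraries it was -1.07 (SE 0.19, unadjusted p = 0.00137, adjusted p = 0.0803, edgeR) and within the 3 larger ones -1.26. Summed β-cell markers were highest in controls 2 and 3 (119100 and 171700 CPM). Over all 8 libraries each of the 6 single markers had a negative log2 fold change. Of these, 4 had an unadjusted p below 0.05 (edgeR), beside 6.89% of all genes lower. Within the 5 smaller libraries the marker sum was 31100, 42760 and 42240 CPM in mutants 1, 2 and 4, against 31950 and 33560 CPM in controls 1 and 4. The part of this sum in the *Trpm5* values was not tested.

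*Trpm3*, a channel opened by pregnenolone sulfate, had 13.9, 15.8, 9.51 and 12.3 CPM in mutants, against 12.5, 32.1, 29.4 and 16.6 CPM in controls. Controls 2 and 3 held the difference. The change was -0.81 (SE 0.31, unadjusted p = 0.03) over all 8 libraries, -0.06 (SE 0.17) within the 5 smaller ones and -1.67 within the 3 larger ones, and the unadjusted p was below 0.05 in 4 of 8 fits without a single library. *Trpm7*, a channel fused to a kinase and permeable to magnesium, had 107, 97.5, 83.4 and 99.5 CPM in mutants, against 125, 117, 101 and 113 CPM in controls, with an overlap of control 3 with mutant 1 only. Its change was -0.23 (SE 0.11, unadjusted p = 0.0686), -0.29 (unadjusted p = 0.0119) with a term for library set and -0.24 (SE 0.07, unadjusted p = 0.0167) within the 5. *Trpm2*, a channel opened by ADP-ribose, had 20.6, 29.7, 23.0 and 25.2 CPM in mutants, against 19.6, 12.6, 14.9 and 26.1 CPM in controls (0.43, SE 0.23, unadjusted p = 0.103). *Trpm4*, the closest relative of *Trpm5*, had 13.8 to 18.3 CPM in mutants and 10.1 to 19.3 CPM in controls (0.13, SE 0.22). *Trpm1* split by library set, with 1.47, 2.36, 0.458 and 2.82 CPM in mutants and 2.62, 0.371, 0.247 and 2.74 CPM in controls, and *Trpm6* had 0.103 to 1.42 CPM in mutants and 0.262 to 0.908 CPM in controls.

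TRPV and TRPA channels were at low levels. *Trpv4*, an osmotically sensitive channel, had 9.18, 2.0, 2.27 and 3.77 CPM in mutants, against 6.77, 2.86, 1.03 and 1.76 CPM in controls (0.47, SE 0.67), with library 1 the highest of each group. *Trpv2* had 2.29 to 3.46 CPM in mutants and 2.01 to 3.89 CPM in controls (-0.02, SE 0.26). *Trpv6* stayed under 0.6 CPM in all libraries. *Trpa1*, the irritant receptor, had 0.403 to 1.85 CPM in mutants and 0.727 to 2.38 CPM in controls, with a change of -0.50 (SE 0.58), and the highest value of each group came from library 3, the female library of each group. None of these 4 had an unadjusted p below 0.05. *Trpc4ap*, the protein that is no channel, had 173 to 186 CPM in mutants and 177 to 213 CPM in controls (-0.11, SE 0.10), and it overlaps *Myh7b*.

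The division of the libraries weighed on many of these values. Within the 5 smaller libraries all mutants were below all controls for 20 of the 51 members (39.2%; 21.5% of all genes) and above them for 3, *Cacna1f*, *Scn7a* and *Scnn1a* (5.88%; 21.7% of all genes). At an unadjusted p below 0.05 in edgeR's fit to these 5, 14 of 53 members tested were lower (10.6% of all genes) and 0 higher (12.7%). The 14 included *Cacna1a*, *Cacna1b*, *Cacna1c* and *Cacna1d*, *Cacna2d1*, *Cacnb2*, *Scn3a*, *Scn3b*, *Scn8a* and *Scn9a*, *Trpc7*, *Trpm5* and *Trpm7*, and 6 of them were also among the 10 over all 8 libraries. Mutants lay below controls within the 5 and within the 3 libraries at once for 10 members (19.6%; 8.38% of all genes), namely *Cacna1a*, *Cacna2d1*, *Cacnb2*, *Cacnb4*, *Scn3a*, *Scn8a*, *Trpc5*, *Trpc7*, *Trpm5* and *Trpm7*. No member was called in the fit to the 5 (0.0641% of all genes) or in the fit with a term for library set (0.0263%). The smallest adjusted p of a member was 0.0795 in the former (*Cacna1a*, edgeR) and 0.084 in the latter (*Trpm5*, edgeR). With the library set term 9 members were lower (6.21% of all genes) and 1, *Scnn1a*, was higher (8.3%) at an unadjusted p below 0.05. The 3 larger libraries include 1 mutant and test nothing about the genotype. Within the 5 smaller libraries the acinar marker sum was 98.2, 75.0 and 677 CPM in mutants 1, 2 and 4, against 18.0 and 271 CPM in controls 1 and 4, and the fibroblast, stellate and pericyte sum was 657 to 880 CPM, against 439.8 and 323 CPM in controls 1 and 4. The sum of 3 δ-cell markers was 1651, 984.7 and 832.1 CPM in mutants 1, 2 and 4, against 1868 and 1653 CPM in controls 1 and 4, and the 1 marker of PP cells had 1781, 1245 and 1173 CPM, against 3127 and 2655 CPM, so both lay below the controls in every mutant of this set, mutant 1 only just for the δ-cell sum. For α-cell markers the sum was 11750, 20050 and 10400 CPM in mutants 1, 2 and 4, against 22380 and 19160 CPM in controls 1 and 4, with mutant 2 above control 4. The part of these sums in the lower channel values was not tested.

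**Figure D4:**
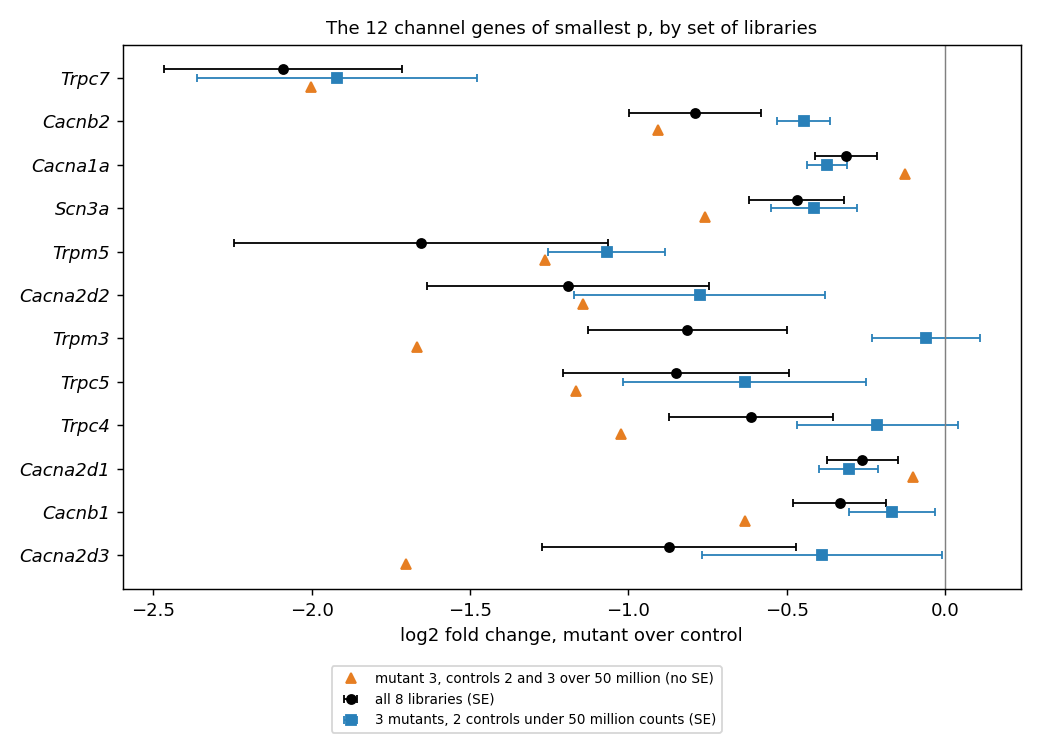
Log2 fold change, mutant over control, of the 12 members with the smallest p over all 8 libraries (circles, bars of 1 SE), within the 5 libraries of under 50 M counts (squares, bars of 1 SE) and within the 3 libraries of over 50 M counts (triangles, no error). Trpc7 (-1.92 within the 5 and -2.0 within the 3), Trpm5 (-1.07 and -1.26) and Cacnb2 (-0.45 and -0.91) lie below 0 in both sets, while Trpm3 lies near 0 in the first (-0.06) and far below it in the second (-1.67).

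Genes that work with these channels were taken from a list of 77, of which 75 were in the table and 71 were tested. By edgeR 0 were called, and DESeq2 also called 0. At an unadjusted p below 0.05, 6 were higher and 6 lower in mutants, beside 6.4% and 6.89% of all genes, and the median log2 fold change was -0.13. Of 21 channel partners 5 had a higher and 16 a lower mean (8 and 13 with total count scaling, and again 5 and 16 against the median of all genes). *Cabp1*, a calcium sensor that binds calcium channels, had 37.1, 37.6, 33.5 and 46.6 CPM in mutants, against 28.7, 23.6, 20.7 and 28.0 CPM in controls, with all mutants above all controls (0.62, SE 0.15, unadjusted p = 0.00315, adjusted p = 0.348). *Rem1*, a small GTPase that inhibits calcium channels through their β subunit, had 2.42, 2.53, 1.70 and 3.46 CPM in mutants, against 1.53, 0.445, 0.627 and 1.38 CPM in controls, also without overlap (1.35, SE 0.45, unadjusted p = 0.0151). *Fgf14*, an intracellular partner of sodium channels, had 2.74, 2.94, 3.49 and 1.73 CPM in mutants, against 4.49, 3.73, 6.65 and 3.72 CPM in controls, without overlap in the other direction (-0.77, SE 0.30, unadjusted p = 0.03), and its relative *Fgf13* had 0.12 to 0.712 CPM in mutants and 0.415 to 2.28 CPM in controls (-1.92, SE 0.72, unadjusted p = 0.0275).

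Calcium store genes were mixed, with 9 of 14 higher and 5 lower in mean. With total count scaling 10 were higher and 4 lower, and against the median of all genes in that scaling 8 and 6. *Itpr3*, an IP3 receptor, had 299, 246, 232 and 245 CPM in mutants, against 221, 127, 154 and 204 CPM in controls, with all mutants above all controls (0.54, SE 0.19, unadjusted p = 0.0194). Its relative *Itpr1* had 144, 149, 148 and 117 CPM in mutants, against 174, 146, 467 and 190 CPM in controls, where control 3 stood far above the rest (-0.81, SE 0.35, unadjusted p = 0.0473). The store-operated pore *Orai2* (0.52, SE 0.23) and the store sensor *Stim2* (-0.21, SE 0.12) followed in p. Of the 17 pumps and exchangers tested 7 had a higher and 10 a lower mean (9 and 8 with total count scaling). The mitochondrial sodium-calcium exchanger *Slc8b1* had 6.71 to 11.7 CPM in mutants and 2.83 to 8.12 CPM in controls (0.84, SE 0.36, unadjusted p = 0.0461), and *Mcub*, a subunit of the mitochondrial calcium uniporter, had 9.84 to 35.7 CPM in mutants and 3.88 to 20.9 CPM in controls (1.24, SE 0.55). The plasma membrane pump *Atp2b3* was under 0.6 CPM in mutants and had 0.156 to 3.40 CPM in controls (-2.94, SE 1.22, unadjusted p = 0.0406), and the exchanger *Slc8a3* was low in both groups (-1.08, SE 0.55).

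Among 19 other cation channel genes tested, 9 had a higher and 10 a lower mean (10 and 9 with total count scaling). *Unc79*, a subunit of the sodium leak channel complex, had 75.4, 81.1, 63.2 and 69.9 CPM in mutants, against 92.2, 97.5, 147 and 86.2 CPM in controls, without overlap (-0.55, SE 0.18, unadjusted p = 0.0145). *Hcn2*, a pacemaker channel, had 39.4, 47.0, 53.6 and 42.2 CPM in mutants, against 32.4, 32.5, 39.9 and 37.0 CPM in controls, where only mutant 1 and control 3 crossed (0.36, SE 0.13, unadjusted p = 0.0231). *Piezo1*, a stretch-activated channel also found in vessels and connective tissue, had 84.8, 51.5, 59.8 and 75.0 CPM in mutants, against 57.1, 23.8, 19.9 and 47.9 CPM in controls (0.87, SE 0.35, unadjusted p = 0.0344). *Tmem63c* had 8.92 to 11.8 CPM in mutants and 11.2 to 24.4 CPM in controls (-0.57, SE 0.25). The fibroblast, stellate and pericyte marker sum was higher in every mutant, and its part in the *Piezo1* values was not tested.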

How the data were processed

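RNA was sequenced from islets of 4 *Itgb1* mutant and 4 control libraries. The authors trimmed single-end reads with Trimmomatic and FASTP, used STAR for alignment to mm10 and featureCounts with default parameters for counting, and the deposited values are raw counts per gene. The submitters' processing notes also name GRCm38 and edgeR. A deposited table of the authors' own comparison (CPM, fold changes, p-values and FDR) was not used. The authors corrected batch effects in the design of their own comparison, but the batches are not named. Genotype was therefore the only term of the main fit, which lacks that correction.

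Counts were tested over the whole table in R 4.3.3 with edgeR 4.0.16 (filterByExpr, TMM, quasi-likelihood test, Benjamini-Hochberg adjustment over the 15233 genes tested), and the SE is the size of the log2 fold change divided by the square root of F. Single values were compared with exact permutation tests on log2(CPM + 0.5). CPM per kb divides by the gene length in the count table. A call needed an adjusted p under 0.05 together with a difference of over 2-fold. The procedure was tested on simulated data. Depth was 35.1 to 67.6 M counts per library, and no pair of libraries agreed within sampling noise (chi-square per gene of at least 26.6).

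Named members are the 12 with the smallest p, the 2 with the highest CPM of each family, a list of members known from islets, and those without overlap between groups. Partner genes named are the 2 with the smallest p in each direction of each role. Members and lists were chosen with earlier results of these data known. Alternatives were edgeR's likelihood ratio test, DESeq2 1.42.0, other scalings and filters, terms for replicate number, library set and sex, fits within library sets, and leaving out each library. The count of members below controls in both library sets at once was added after seeing the data. Single-gene results of some members are left out of the text and figures, while counts, medians and sums include them. Of the promoter table, 53 of 67 members matched.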

Additional observations from a re-analysis of the deposited data

Results flagged for a closer look

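In 4 of 70 groups of 4 values, each a named member in 1 genotype, a single library lay far from the other 3 by Dixon's criterion. Chance gives such a library in about 1 group in 20. *Trpm5* was 42.8 CPM in mutant 3, against 12.6 to 15.4 CPM in the other mutants. *Cacna1e* was 1.85 CPM in mutant 1, against 0.168 to 0.285 CPM in the other mutants. *Trpm4* was 13.8 CPM in mutant 3, against 17.6 to 18.3 CPM in the other mutants. *Trpv6* was 0.597 CPM in control 1, against 0.114 to 0.167 CPM in the other controls. Mutant 3 is the 1 mutant library of over 50 M counts and also the 1 female mutant library, so library set and sex cannot be told apart among mutants.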

How the results depend on the processing

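DESeq2 and edgeR's likelihood ratio test each called 1 member, *Trpc7* (log2 fold changes of -2.10 and -2.09), where the quasi-likelihood test called 0, and the likelihood ratio test called 0.597% of all genes. The count of members lower at an unadjusted p below 0.05 was 10 (6.89% of all genes), and it was 5 with total counts as scaling (3.3% of all genes) and 4 to 10 with single libraries left out (3.67% to 9.94% of all genes), with 4 without mutant 4, 5 without mutant 2 and 5 without control 3. It was 7 to 14 under each other alternative run (5.72% to 10.6% of all genes). The count of higher members was 0 (6.4% of all genes), and it was 1 with no low count filter (*Scn10a*; 5.85%), 1 with the library set term (8.3%), 2 with the sex term (9.32%), 2 with the replicate block (10.2%) and 0 to 4 with single libraries left out (3.51% to 8.46%), the most without control 1 (8.26%). The median log2 fold change of members was -0.02 with total counts, -0.35 within the 3 larger libraries and -0.21 to -0.15 with single libraries left out. Of 71 partner genes, 11 were higher with the library set term (8.3% of all genes), and 11 higher and 11 lower within the 5 smaller libraries (12.7% and 10.6% of all genes). Members without overlap numbered 2 below with total counts (1.88% of all genes), and 20 below and 3 above within the 5 (21.5% and 21.7%).

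Some members, with log2 fold changes from -0.71 (*Cacng4*) to 0.47 (*Trpv4*) and an unadjusted p above 0.05 over all 8 libraries, changed sign. With total counts the log2 fold change was 0.042 for *Cacna1c*, 0.15 for *Scnn1g*, 0.0902 for *Trpv2* and 0.12 for *Cacna1h*. Within the 5 smaller libraries it was 0.18 for *Cacng4*, 0.42 for *Scnn1g*, 0.13 for *Trpc1*, 0.96 for *Cacna1e*, 0.22 for *Cacna1h*, -0.082 for *Trpm4* and -0.56 for *Trpv6*. Within the 3 larger it was 0.11 for *Cacna1c*, 0.028 for *Cacnb3*, 0.12 for *Scn9a*, -0.043 for *Scnn1b*, 0.079 for *Trpa1* and 0.38 for *Cacna1g*. With single libraries left out the ranges were -0.23 to 0.18 for *Cacna1c*, -0.16 to 0.33 for *Scnn1g*, -0.21 to 1.19 for *Trpv4*, -0.13 to 0.96 for *Trpv6*, -0.17 to 0.14 for *Trpv2*, -0.23 to 0.10 for *Cacna1h*, -0.026 to 0.26 for *Trpm4* and -1.16 to 0.0088 for *Trpa1*. The cause was not tested.

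Libraries of the same number deviated together in 3 of 4 pairs but not in pair 2 (correlations of deviations 0.432, -0.0301, 0.433 and 0.231), and 6 of the 8 libraries correlated best with the library of their own number. As no source ties the numbers to a shared litter or day and a correlation above 0.1 was required of every pair, the numbers were not taken as pairs. When replicate number entered the fit as a block, 7 members were lower and 2 higher (*Scnn1a* and *Trpc6*) at an unadjusted p below 0.05, 0 were called, and the block gave 0.0485 for *Cacna1c*, 0.011 for *Scnn1g* and 0.000424 for *Trpv2*. *Trpc7* rests on 8 to 90 reads per library, which limits its precision.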
